A study of Mus musculus with 36 samples.

Results

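The response of primary mouse adipocytes to butyrate was set against the response of primary mouse macrophages, gene by gene, as the log2 fold change of butyrate over control in adipocytes minus the same fold change in macrophages. The comparison rests on 12 of the 36 RNA-seq libraries of the study, with 3 libraries each of adipocytes and macrophages that received PBS as control or 5 mM NaB (butyric acid sodium salt) for 6 h. All cells came from C57Bl/6 male mice with no genetic change given in the labels, and the age of the mice is not given in the sources used here. The adipocyte cultures began as stromal vascular cells of inguinal fat pooled from several mice and were induced with a cocktail that held insulin, dexamethasone, isobutylmethylxanthine and the PPARγ agonist rosiglitazone, and their differentiation was scored by eye. Macrophages were grown from bone marrow of the femur in medium conditioned by L929 fibroblasts, which supplies the growth factor these cells need. Whether the 3 libraries of a group came from separate cultures or animals is not stated. The p-values therefore measure a spread between libraries that may be technical. That spread was estimated over all 36 libraries and not within these groups alone. The question was which genes respond to butyrate in only 1 of the cell types, or in opposite directions.

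Butyrate, a short-chain fatty acid, blocks class I and II histone deacetylases (HDACs), enzymes that remove acetyl groups from histones and other proteins. Acetylated histones are in general a mark of active promoters and enhancers, and inhibitors of HDACs both raise and lower large numbers of genes within hours. Adipocytes store and release triglycerides under the control of insulin and catecholamines, whereas macrophages take up and digest particles in lysosomes and sense microbes through innate receptors.

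The 12 libraries held 18845571 to 23180421 estimated counts each. Levels are given as CPM (counts scaled to a common library size) after TMM scaling, and tests are edgeR quasi-likelihood tests with Benjamini-Hochberg adjustment over 15340 tested genes, of which 12221 (79.67%) had a mean of at least 1 CPM in control or butyrate libraries of each cell type. The summed level of 8 adipocyte-defining markers was 9977 to 10860.0 CPM in adipocyte controls and 98.5 to 105 CPM in macrophage controls, where *Fabp4* (85.6 CPM) and *Lipe* (15.8 CPM), which macrophages also express, made up nearly all of the sum and the other 6 markers were under 1 CPM. Among those, *Adipoq*, *Plin1*, *Cidec* and *Cfd* had mean levels of 428 to 1214 CPM in adipocyte controls and of at most 0.10 CPM in macrophage controls. The summed level of 12 macrophage-defining markers was 21920 to 22050 CPM in macrophage controls and 451 to 531 CPM in adipocyte controls, all 12 markers having at least 1 CPM in adipocytes, which is 2.31% of the macrophage level at the medians. With butyrate the sum was lower in both, at 14030.0 to 14800.0 CPM in macrophages and 417 to 455 CPM in adipocytes (2.98%), and the adipocyte-defining sum in adipocytes was 7505 to 9128 CPM. Fibroblast and preadipocyte markers summed to 8583 to 9814 CPM in adipocyte controls and to 2529 to 2718 CPM in macrophage controls, where *Col1a1* (1376 CPM) and *Col1a2* (977 CPM) carried most of the sum and *Lum* was at 0. The 9 endothelial markers summed to 211 to 238 CPM in adipocyte controls and 131 to 159 CPM in macrophage controls, with mean levels of *Pecam1* of 75.8 and 4.30 CPM. Among the groups compared, adipocyte control replicate 1 stood apart, with a chi-square per gene of 16.4 and 13.2 against the other two controls, which differed by 3.51, while other pairs within a group had 2.68 to 7.46. Without it, 2792 genes had a higher and 2372 a lower response in adipocytes, and 362 and 244 were opposite, beside the 2986, 2632, 405 and 291 given below. In bulk RNA, fewer cells of a type and less RNA per cell cannot be told apart, and the part of these other cells in the results below was not tested.

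Butyrate changed 9359 genes in adipocytes (61.0% of those tested) and 9972 in macrophages (65.0%) at an FDR below 0.05. In adipocytes 4717 (30.7%) rose and 4642 (30.3%) fell, and in macrophages 4886 (31.9%) rose and 5086 (33.2%) fell. The responses themselves differed between the cell types for 5618 genes (36.6%), with 2986 genes (19.5%) responding more upward in adipocytes and 2632 (17.2%) more upward in macrophages. Scaling by library totals alone moved the median difference over all genes by -0.12 on the log2 scale and turned this split to 2014 against 3875 genes. Of the 5618 genes, 2273 (14.8% of those tested) moved the same way in both cell types by different amounts. The larger change was in macrophages for 1431 of them and in adipocytes for 842. Opposite directions, with an FDR below 0.05 in the difference and in each cell type, were called for 696 genes (4.54%), of which 405 (2.64%) rose in adipocytes and fell in macrophages and 291 (1.9%) did the reverse. With library totals alone this balance turned to 251 against 457, and 190 of the 405 and 202 of the 291 kept their call. A response in 1 cell type only was called for 313 genes (2.04%). For these the fold change was at least 1 on the log2 scale at an FDR below 0.05 in 1 cell type, within 0.25 on the log2 scale with no call in the other, and the gene had at least 1 CPM in both. The 3 butyrate libraries lay on 1 side of the 3 controls in the responding cell type for all 72 and 49 genes raised and lowered in adipocytes alone and for 99 of 100 and 91 of 92 in macrophages alone, beside 67.3% and 72.2% of all tested genes in adipocytes and in macrophages. The calls rest on the same libraries, so these counts describe the genes and add no support. The other genes with a different response were called in adipocytes (5.55%) or in macrophages (7.43%) without meeting these limits, in neither (0.254%), or had under 1 CPM in a cell type (1.99%).

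**Figure D1:**
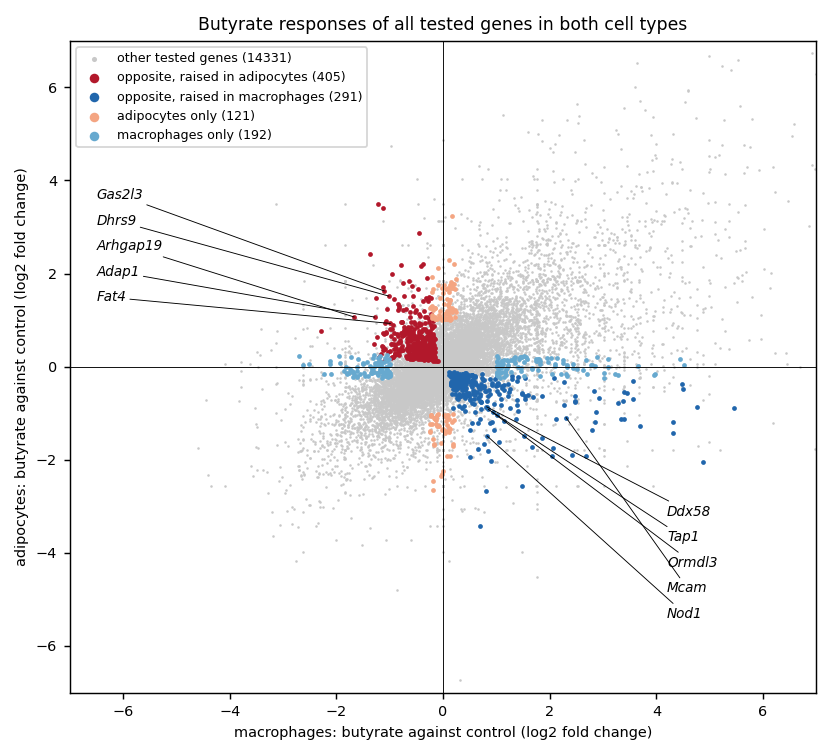
Log2 fold change of butyrate over control in macrophages (x axis) and in adipocytes (y axis) for the tested genes, 18 of which lie outside the plotted range of 7 on either axis. Red and dark blue points are the 405 and 291 genes that moved in opposite directions, orange and light blue points those that responded in adipocytes only or in macrophages only, and labels mark the 5 leading genes of each opposite group.

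The opposite responses were small for most genes. Among the 405 genes that rose in adipocytes and fell in macrophages, the median log2 fold change was 0.44 in adipocytes and -0.43 in macrophages, and for the 291 genes of the reverse pattern it was -0.42 and 0.53. A change of at least 1 on the log2 scale in each cell type was reached by 10 and 22 genes, and 187 of the 696 changed by at least 0.5 in each. Most of the 22 and several of the 10 had means under 1 CPM in control and butyrate libraries of at least 1 cell type. One of them was *Pgr*, at 0 in macrophage controls and at a mean of 0.11 CPM with butyrate. The 3 butyrate libraries lay on 1 side of the 3 controls in each cell type for 382 and 254 of these genes, beside 6.77% of all tested genes whose libraries lay on opposite sides in the cell types, a count that the call itself largely fixes. The control levels were uneven between the cell types, which is given as a description only, since the same control libraries enter the responses that chose the genes. Of the genes that rose in adipocytes, 360 (88.89%) were higher in macrophage than in adipocyte controls, and of those that rose in macrophages, 257 (88.32%) were higher in adipocyte controls, compared with 47.87% and 52.13% of all tested genes. With genes below 1 CPM in either cell type left out, 393 and 247 opposite genes remained.

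Promoter windows of the leading pair of genes of each opposite group are shown because these genes moved together under a compound that acts on chromatin. The windows run from 250 bases before to 50 after the RefSeq start (GRCm38.p6), printed 5′ to 3′ on the strand of the gene in lower case, with each match to GGGCGG or its complement CCGCCC, the core of the GC box bound by Sp1, in capitals. A match is a description only, and no other motif was searched. Among the 11485 tested genes with a window (74.87%), 62.26% held at least 1 match and the median number of CpG dinucleotides was 20. Since fewer than 80% of tested genes had a window, a comparison of the gene groups by promoter content is void and is not given. *Gas2l3* (chr10:89443918-89444217, minus strand, 24 CpG, no match), *Arhgap19* (chr19:41802035-41802334, minus strand, 14 CpG, 1 match), *Mcam* (chr9:44134408-44134707, plus strand, 29 CpG, 5 matches) and *Ormdl3* (chr11:98587196-98587495, minus strand, 22 CpG, 2 matches) have these windows:
Gas2l3: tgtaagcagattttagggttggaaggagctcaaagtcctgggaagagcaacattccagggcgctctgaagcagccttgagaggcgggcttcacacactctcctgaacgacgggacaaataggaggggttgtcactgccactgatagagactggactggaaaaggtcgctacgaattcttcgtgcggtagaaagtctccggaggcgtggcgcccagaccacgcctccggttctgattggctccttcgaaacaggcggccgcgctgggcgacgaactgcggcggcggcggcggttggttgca
Arhgap19: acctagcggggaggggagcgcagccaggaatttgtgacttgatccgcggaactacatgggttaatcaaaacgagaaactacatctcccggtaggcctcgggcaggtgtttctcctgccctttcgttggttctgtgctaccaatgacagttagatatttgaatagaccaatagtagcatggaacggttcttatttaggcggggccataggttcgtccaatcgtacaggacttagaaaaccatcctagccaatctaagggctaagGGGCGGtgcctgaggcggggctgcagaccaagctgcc
Mcam: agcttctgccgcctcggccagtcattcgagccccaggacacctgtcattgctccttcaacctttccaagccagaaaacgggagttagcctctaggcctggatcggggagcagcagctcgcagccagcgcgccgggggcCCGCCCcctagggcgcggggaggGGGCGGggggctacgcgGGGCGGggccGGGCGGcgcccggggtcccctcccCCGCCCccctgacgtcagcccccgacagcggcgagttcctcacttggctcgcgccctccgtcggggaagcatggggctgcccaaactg
Ormdl3: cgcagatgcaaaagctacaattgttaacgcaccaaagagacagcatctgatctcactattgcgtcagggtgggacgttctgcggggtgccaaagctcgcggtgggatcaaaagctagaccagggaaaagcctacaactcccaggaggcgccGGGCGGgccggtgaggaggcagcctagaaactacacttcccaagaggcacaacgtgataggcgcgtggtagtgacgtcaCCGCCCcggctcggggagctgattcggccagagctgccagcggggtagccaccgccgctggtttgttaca

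Genes that rose in adipocytes and fell in macrophages were led by *Gas2l3*, *Arhgap19*, *Adap1*, *Dhrs9* and *Fat4*, ranked by the smaller of the absolute fold changes among 318 candidates with separated libraries and at least 5 CPM in each cell type. *Gas2l3* (ENSMUSG00000074802, chromosome 10, 89408823 to 89443967, minus strand) encodes a protein that links actin and microtubules and acts in cytokinesis. Its level was 3.85, 4.18 and 4.35 CPM in adipocyte controls and 12.8, 13.7 and 11.8 CPM with butyrate. In macrophages it was 151, 148 and 148 CPM in controls and 75.7, 68.0 and 64.8 CPM with butyrate. The libraries of each cell type did not overlap between treatments, and butyrate brought a 3.08-fold rise in adipocytes and a 2.15-fold fall in macrophages. On the log2 scale the responses were 1.62 ± 0.14 (SE) and -1.10 ± 0.10, a difference of 2.73 (95% interval 2.38 to 3.08, adjusted p = 1.82e-13). *Arhgap19* (ENSMUSG00000025154, chromosome 19, 41766588 to 41802047, minus strand), a GTPase-activating protein that also acts in cytokinesis, had 8.10, 9.48 and 9.20 CPM in adipocyte controls against 18.0, 19.2 and 18.9 CPM with butyrate. In macrophages its controls had 164, 164 and 164 CPM and its butyrate libraries 54.6, 51.2 and 49.3 CPM. The rise in adipocytes was 1.07 ± 0.13 and the fall in macrophages -1.67 ± 0.10, with a difference of 2.73 (2.40 to 3.06, adjusted p = 6.31e-14).

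The other leading genes of this direction were *Adap1*, *Dhrs9* and *Fat4*. *Adap1* (chromosome 5, 139271876 to 139325622, minus strand) encodes a GTPase-activating protein for Arf6. It rose from 4.01 to 5.28 CPM in adipocyte controls to 9.07 to 9.78 CPM and fell from 56.2 to 56.9 CPM in macrophage controls to 22.3 to 25.0 CPM. *Dhrs9* (chromosome 2, 69380445 to 69404533, plus strand), a short-chain dehydrogenase that oxidizes retinol and steroids, rose from 4.77 to 6.02 CPM to 15.3 to 15.9 CPM in adipocytes. In macrophages it fell from 31.4 to 34.1 CPM to 14.0 to 17.6 CPM, so that butyrate libraries of the cell types had nearly the same level of this gene. *Fat4* (chromosome 3, 38886940 to 39011985, plus strand), an atypical cadherin of planar cell polarity, rose from 9.18 to 10.5 CPM to 17.9 to 18.9 CPM in adipocytes and fell from 24.1 to 30.6 CPM to 11.7 to 16.8 CPM in macrophages. Its butyrate libraries were higher in adipocytes than in macrophages, the reverse of its controls. The differences of the responses were 2.35 ± 0.18 for *Adap1*, 2.53 ± 0.21 for *Dhrs9* and 1.92 ± 0.15 for *Fat4*, all at an adjusted p of at most 8.73e-11. *Gas2l3* in adipocyte controls stood at 2.77% of its level in macrophage controls, close to the 2.31% of the summed macrophage markers, and 13 of the 405 genes lay under that share.

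**Figure D2:**
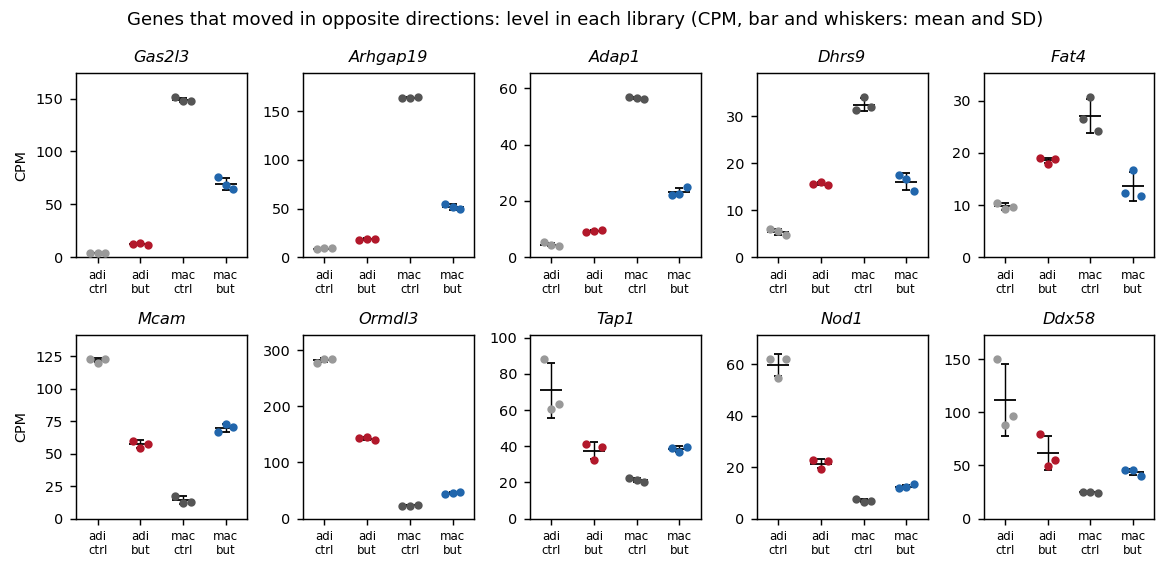
Level in CPM (linear axis from 0) of the 10 leading opposite genes in each library of adipocyte controls (adi ctrl), adipocytes with butyrate (adi but), macrophage controls (mac ctrl) and macrophages with butyrate (mac but). Points are libraries, and bars with whiskers are means and SD (n = 3). The upper row rose in adipocytes and fell in macrophages, the lower row did the reverse, and for *Ddx58* and *Tap1* adipocyte replicate 1 was the highest of its control group.

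The reverse pattern was led by *Mcam*, *Ormdl3*, *Tap1*, *Nod1* and *Ddx58* among 181 candidates. *Mcam* (ENSMUSG00000032135, chromosome 9, 44134469 to 44142727, plus strand), the adhesion molecule CD146, had 123, 120.1 and 123 CPM in adipocyte controls and 60.1, 54.2 and 57.7 CPM with butyrate. Macrophage controls had 17.5, 11.8 and 12.9 CPM and butyrate libraries 66.6, 73.1 and 70.2 CPM. With butyrate *Mcam* was therefore higher in macrophages than in adipocytes. The fall in adipocytes was 2.13-fold and the rise in macrophages 4.94-fold, and the difference of the responses was -3.40 on the log2 scale (-3.70 to -3.09, adjusted p = 9.22e-17). *Mcam* overlaps the tested gene *Gm10687* on the other strand, and the counting is not stated to use strand. *Ormdl3* (ENSMUSG00000038150, chromosome 11, 98581256 to 98587368, minus strand) encodes a protein of the endoplasmic reticulum that restrains serine palmitoyltransferase, the first enzyme of sphingolipid synthesis. Its level fell from 278, 284 and 285 CPM to 144, 145 and 139 CPM in adipocytes. In macrophages it rose from 22.5, 23.0 and 24.9 CPM to 43.2, 44.7 and 46.7 CPM. The responses were -0.98 ± 0.05 and 0.93 ± 0.06, and their difference was -1.92 (-2.08 to -1.76, adjusted p = 3.04e-17).

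*Nod1* (chromosome 6, 54923949 to 54972612, minus strand), a cytosolic sensor of bacterial peptidoglycan, fell from 54.9 to 62.2 CPM to 19.2 to 22.6 CPM in adipocytes and rose from 6.50 to 7.76 CPM to 11.9 to 13.3 CPM in macrophages. *Tap1* (chromosome 17, 34187553 to 34197225, plus strand), a subunit of the transporter that carries peptides to MHC class I molecules, fell from 60.6 to 88.5 CPM to 32.2 to 41.2 CPM in adipocytes. It rose from 20.3 to 22.2 CPM to 36.6 to 39.5 CPM in macrophages, and with butyrate the cell types overlapped. *Ddx58* (chromosome 4, 40203773 to 40239828, minus strand), which encodes the viral RNA sensor RIG-I, had 151, 88.1 and 96.9 CPM in adipocyte controls and 80.0, 49.5 and 55.4 CPM with butyrate. Its macrophage controls had 24.8, 24.9 and 24.5 CPM and its butyrate libraries 45.3, 45.5 and 40.1 CPM. Adipocyte replicate 1 was the highest in both treatments for *Ddx58*, and the difference of the responses had a wider interval (-1.68, -2.30 to -1.06, adjusted p = 4.93e-05) than for *Nod1* (-2.31, -2.57 to -2.06, adjusted p = 1.23e-14) or *Tap1* (-1.76, -2.24 to -1.29, adjusted p = 5.03e-07). *Tap1* overlaps *Psmb9* on the opposite strand. In macrophage controls, 28 of the 291 genes lay under 1.01% of their adipocyte level, the share at which the summed adipocyte markers stood there. *Fabp4* and *Lipe*, which macrophages also express, made up nearly all of that share.

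Adipocytes alone raised 72 genes (0.469% of those tested), 24 of which stayed in this group with library totals alone. Of the 72, 69 (95.83%) were higher in macrophage than in adipocyte controls, beside 47.87% of all tested genes. As for the opposite genes, these control libraries enter the choice of the genes, so the shares of this kind given here and for the other groups that responded in 1 cell type are descriptions only. The 4 leading genes (of 51 candidates) all rose from a low level in adipocytes and had a high, nearly level amount in macrophages. *Rab3il1*, a guanine nucleotide exchange factor for Rab GTPases, had 5.80, 5.39 and 7.09 CPM in adipocyte controls and 27.4, 27.2 and 24.9 CPM with butyrate. Its macrophage libraries held 95.1 to 99.6 CPM in controls and 89.6 to 90.9 CPM with butyrate. The response was 2.12 ± 0.11 in adipocytes and -0.10 ± 0.09 in macrophages (95% interval -0.28 to 0.07), a difference of 2.22 ± 0.14 (adjusted p = 2.4e-13). *Rps6ka1*, the kinase RSK1 downstream of ERK, rose from 4.87 to 5.15 CPM to 16.4 to 17.4 CPM in adipocytes, and in macrophages it had 82.1 to 86.1 CPM in controls and 82.8 to 86.8 CPM with butyrate. With library totals alone it left this group. *Etv1*, an ETS transcription factor, rose from 1.34 to 2.07 CPM to 5.79 to 5.98 CPM and had 15.5 to 17.3 and 15.3 to 16.3 CPM in macrophages. *Pgap1*, which trims GPI anchors in the endoplasmic reticulum, rose from 4.11 to 6.12 CPM to 16.0 to 18.8 CPM, while its macrophage libraries had 136 to 148 CPM in controls and 145 to 163 CPM with butyrate. Its macrophage response of 0.16 ± 0.09 was not called, with a 95% interval of -0.03 to 0.34, and the gene no longer met the rule for a response in 1 cell type under limma-voom, with library totals alone, with the 12 libraries alone or without macrophage butyrate replicate 3.

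In 49 genes (0.319%) butyrate lowered the level in adipocytes alone, and 23 of them stayed in this group with library totals alone. Of the 49, 36 (73.47%) were higher in adipocyte controls, beside 52.13% of all genes. *Aldh1a3*, an enzyme that makes retinoic acid from retinaldehyde, showed the largest difference among 21 candidates. It fell from 65.3, 40.6 and 51.7 CPM to 11.7, 8.20 and 11.4 CPM in adipocytes, a 5.07-fold decrease, whereas macrophages had 33.4 to 45.8 CPM in controls and 35.6 to 40.3 CPM with butyrate. *Arhgef40*, a guanine nucleotide exchange factor for small GTPases, fell from 76.7 to 81.5 CPM to 19.5 to 22.7 CPM in adipocytes and had 13.6 to 14.9 and 13.9 to 16.2 CPM in macrophages. It overlaps *Zfp219* on the opposite strand, and without macrophage butyrate replicate 1 or with library totals alone it no longer met the rule for a response in 1 cell type. *Cxcl14*, a chemokine, fell from 49.4 to 63.5 CPM to 15.9 to 19.4 CPM in adipocytes, with 33.1 to 34.4 and 31.0 to 35.4 CPM in macrophages. *Il1rn*, the antagonist of the interleukin-1 receptor, fell from 12.2 to 13.7 CPM to 3.72 to 4.39 CPM in adipocytes, with 17.5 to 20.5 and 17.1 to 17.5 CPM in macrophages. The differences of the responses ran from -2.29 ± 0.21 for *Aldh1a3* to -1.52 ± 0.19 for *Il1rn* on the log2 scale.

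**Figure D3:**
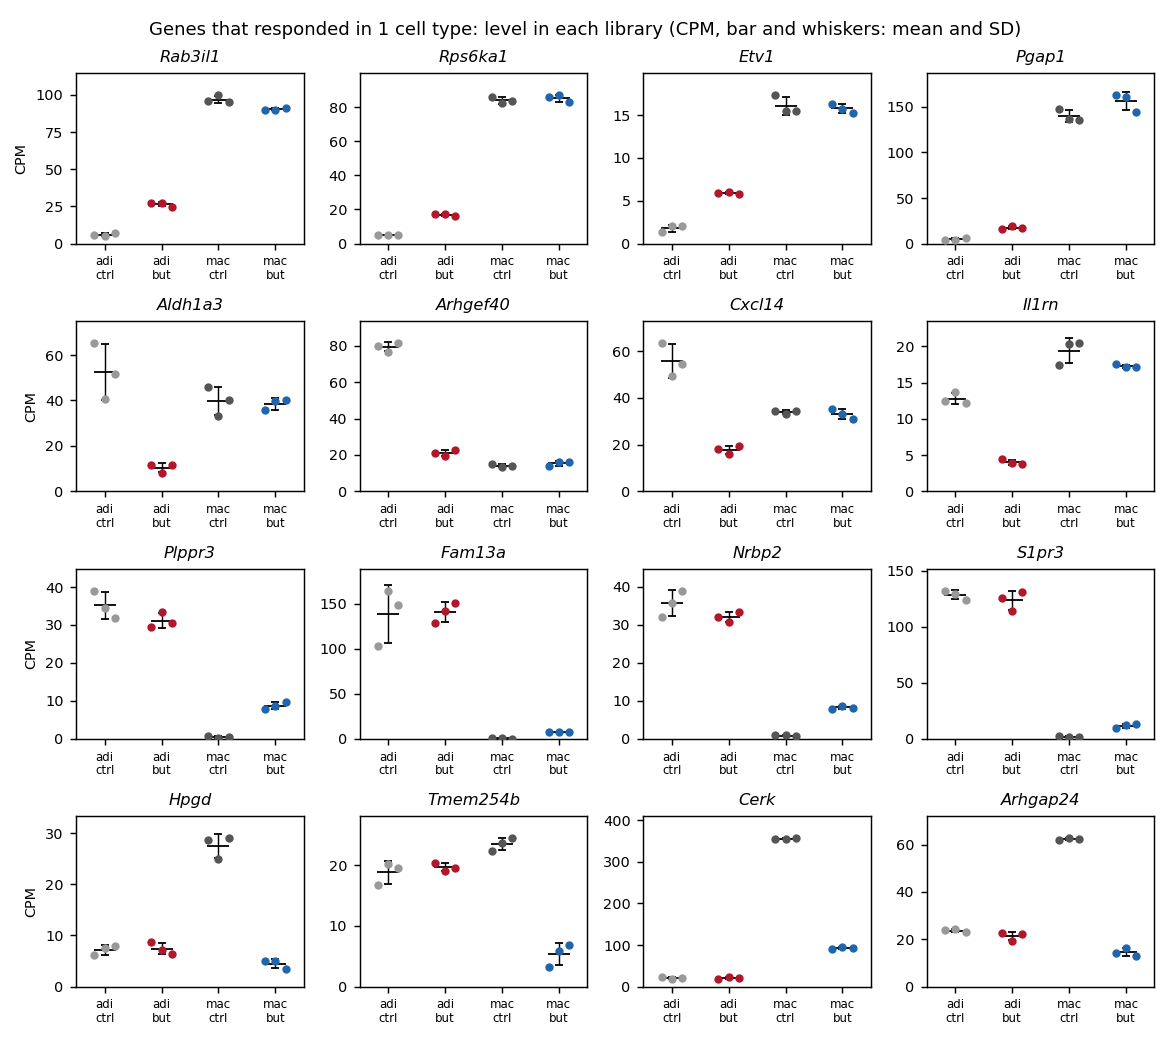
Level in CPM (linear axis from 0) of the 16 leading genes that responded in 1 cell type, in each library (points) with mean and SD (n = 3), grouped as adipocyte controls (adi ctrl), adipocytes with butyrate (adi but), macrophage controls (mac ctrl) and macrophages with butyrate (mac but). Rows from the top show genes raised in adipocytes only, lowered in adipocytes only, raised in macrophages only and lowered in macrophages only. In the other cell type the groups overlap or lie close together.

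Macrophages alone raised 100 genes (0.652%), 77 of which stayed in this group with library totals alone. Of the 100, 94 were higher in adipocyte controls, beside 52.13% of all genes. The leading genes (of 38 candidates) had at most 2.54 CPM in macrophage controls and at least 29.4 CPM in adipocytes. *Plppr3*, a membrane protein related to lipid phosphatases, had 0.85, 0.30 and 0.48 CPM in macrophage controls and 7.82, 8.66 and 9.64 CPM with butyrate, against 31.9 to 39.0 and 29.4 to 33.3 CPM in adipocytes. *Plppr3* overlaps *Ptbp1* and *Prtn3* on the opposite strand, and it lost its place in this group under limma-voom. *Fam13a*, a protein with a GTPase-activating domain, had 0.64, 0.71 and 0.43 CPM in macrophage controls and 7.35, 7.49 and 7.44 CPM with butyrate. Its adipocyte controls spread from 103 to 164 CPM around the butyrate libraries at 129 to 150 CPM. The pseudokinase *Nrbp2* went from 0.82 to 0.93 CPM to 7.95 to 8.66 CPM in macrophages and had 32.2 to 39.0 and 30.7 to 33.4 CPM in adipocytes. *S1pr3*, a receptor for sphingosine 1-phosphate, went from 1.46 to 2.54 CPM to 9.87 to 13.2 CPM in macrophages and had 124 to 132 and 114 to 131 CPM in adipocytes. The rises in macrophages were 15.5-fold for *Plppr3*, 12.6-fold for *Fam13a*, 9.3-fold for *Nrbp2* and 5.68-fold for *S1pr3*, and all 4 genes stayed under their adipocyte level by a wide margin. Of the 100 genes, 10 lay under 1.01% of their adipocyte level in macrophage controls, the marker share that rests on *Fabp4* and *Lipe*.

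Another 92 genes (0.6%) fell in macrophages alone. With library totals alone this group held 50 genes, 38 of them shared with the 92. Of the 92, 74 (80.43%) were higher in macrophage controls, beside 47.87% of all genes. *Hpgd*, the enzyme that inactivates prostaglandins, fell 6.18-fold, from 28.7, 24.9 and 29.0 CPM to 4.96, 4.95 and 3.42 CPM, while adipocytes had 6.15 to 7.98 CPM in controls and 6.46 to 8.68 CPM with butyrate. *Cerk*, the kinase that makes ceramide 1-phosphate, fell from 354, 355 and 357 CPM to 91.1, 94.2 and 92.0 CPM in macrophages, and had 17.9 to 21.8 and 19.2 to 23.0 CPM in adipocytes. The responses of *Cerk* were -1.94 ± 0.07 in macrophages and 0.08 ± 0.08 in adipocytes (-0.08 to 0.25), a difference of 2.03 ± 0.11 (adjusted p = 8.32e-15). *Arhgap24*, a GTPase-activating protein for Rac, fell from 61.7 to 62.6 CPM to 13.0 to 16.3 CPM in macrophages and had 22.9 to 24.2 and 19.3 to 22.8 CPM in adipocytes. *Tmem254b* fell from 22.4 to 24.4 CPM to 3.30 to 6.85 CPM in macrophages, with 16.7 to 20.2 and 19.0 to 20.4 CPM in adipocytes, but its value is uncertain, since it has near-identical copies among which the counting could divide reads.

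The sorted genes were also read in the cell types that the difference did not use, myotubes and hepatocytes, where butyrate changed 66.5% and 63.5% of all tested genes. Of the 72 genes raised in adipocytes alone, 50 rose and 9 fell in myotubes, and 57 rose and 4 fell in hepatocytes. Of the 100 raised in macrophages alone, 62 rose and 14 fell in myotubes and 51 rose and 16 fell in hepatocytes. Over all tested genes, 33.1% rose and 33.4% fell in myotubes, and 31.0% rose and 32.4% fell in hepatocytes. Of the 92 genes lowered in macrophages alone, 54 fell and 11 rose in myotubes and 40 fell and 22 rose in hepatocytes. Of the 49 lowered in adipocytes alone, 22 fell and 12 rose in myotubes and 21 fell and 9 rose in hepatocytes. Of the 405 opposite genes that rose in adipocytes, 198 rose (48.89%) and 74 fell (18.27%) in myotubes and 176 rose (43.46%) and 104 fell (25.68%) in hepatocytes, more rises and fewer falls than over all tested genes. Of the 291 that rose in macrophages, 111 rose and 82 fell in myotubes and 70 rose and 111 fell in hepatocytes. *Gas2l3*, *Arhgap19*, *Adap1*, *Dhrs9* and *Fat4* rose in both of these cell types, by 0.54 to 2.22 on the log2 scale in myotubes and by 0.79 to 2.08 in hepatocytes. *Mcam* and *Ormdl3* rose in both as well (by 1.01 and 0.66 in myotubes and 0.50 and 0.64 in hepatocytes). *Nod1* and *Tap1* rose in myotubes (0.40 and 0.97) and fell in hepatocytes (-0.35 and -0.40). *Ddx58* fell in hepatocytes (-0.78) and was not called in myotubes (0.43). The myotube libraries also hold macrophage markers, all 12 of which fell there under butyrate, and their part in these values was not tested.

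Gene lists by function were described by the number of members whose responses differed. Over all tested genes this was 36.6%, with 19.5% higher and 17.2% lower in adipocytes. The 18 functional lists were not chosen by their response, although earlier results of these data were known, and counts are given with no test of the list. In the fit reported here, the largest shares with a higher response in adipocytes were those of the lysosome and autophagy list (60%) and the early response list (45.2%), and the largest with a lower response there were those of fatty acid oxidation (41.9%) and adipocyte identity (40%), an order that changed when single libraries were left out.

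**Figure D4:**
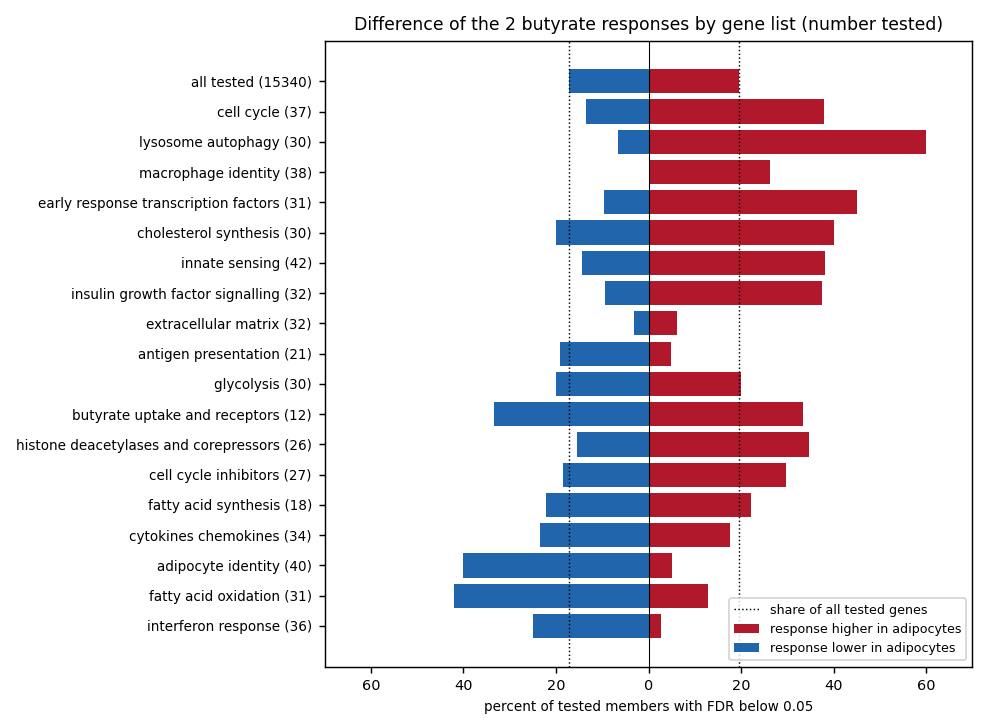
Percent of the tested members of each gene list (number in parentheses) whose butyrate response was higher in adipocytes (red, to the right) or lower in adipocytes (blue, to the left) at an FDR below 0.05, with the lists ordered by median difference. Dotted lines mark the shares of all 15340 tested genes, 19.5% and 17.2%, and the lysosome and autophagy list reaches 60% to the right.

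Of 30 lysosome and autophagy genes, 18 responded more upward in adipocytes and 2 more upward in macrophages, with a median difference of 0.41 on the log2 scale. In macrophages 21 members fell and 3 rose, beside 33.2% and 31.9% of all genes, and in adipocytes 7 fell and 6 rose, beside 30.3% and 30.7%. The 2 became 1 without adipocyte control replicate 3, adipocyte butyrate replicate 1 or 3 or macrophage control replicate 2, and with library totals alone the differences numbered 13 and 4. *Gla*, the lysosomal α-galactosidase, had 26.9 to 33.9 CPM in adipocyte controls and 37.6 to 42.5 CPM with butyrate, and it fell from 334 to 346 CPM to 151 to 159 CPM in macrophages. *Lipa*, the lysosomal acid lipase, rose from 166 to 192 CPM to 203 to 224 CPM in adipocytes and fell from 1510 to 1553 CPM to 801 to 915 CPM in macrophages. *Mcoln1*, a calcium channel of the lysosome, rose by 0.29 ± 0.06 in adipocytes and fell by 0.43 in macrophages. *Gla*, *Lipa* and *Mcoln1* were the members with opposite calls. The exceptions were *Wipi1* and *Map1lc3b*, which act in the formation of autophagosomes and rose in both cell types, *Wipi1* by 0.41 ± 0.08 in adipocytes and 1.23 ± 0.09 in macrophages. The cholesterol list (30 genes, 12 higher and 6 lower in adipocytes, 8 and 7 with library totals alone) held *Npc1*, which exports cholesterol from lysosomes and rose from 80.0 to 83.0 CPM to 132 to 133 CPM in adipocytes and fell from 618 to 640 CPM to 394 to 439 CPM in macrophages. *Stard4*, a carrier of cholesterol, and *Mylip*, a ubiquitin ligase, were opposite in the same way, with differences of 1.04 ± 0.14 and 0.51 ± 0.11.

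Genes of adipocyte identity leaned to the other side, with 2 of 40 members higher and 16 lower in adipocytes. In adipocytes 23 members fell and 4 rose, beside 30.3% and 30.7% of all genes, and in macrophages 13 rose and 10 fell, beside 31.9% and 33.2%. *Adipor2*, a receptor for adiponectin, fell from 949 to 1047 CPM to 584 to 615 CPM in adipocytes and rose from 119 to 123 CPM to 192 to 199 CPM in macrophages (difference -1.43 ± 0.08, adjusted p = 8.3e-15). The insulin receptor *Insr* fell from 185 to 189 CPM to 131 to 133 CPM in adipocytes and rose from 39.9 to 44.2 CPM to 52.6 to 59.5 CPM in macrophages. *Pnpla2*, the adipose triglyceride lipase, fell by 0.32 in adipocytes and rose by 0.28 ± 0.07 in macrophages. *Gpd1*, which makes glycerol 3-phosphate for triglyceride synthesis, fell from 915 to 972 CPM to 720 to 832 CPM in adipocytes and was at 0.25 to 0.47 CPM in macrophage controls and 1.17 to 1.68 CPM with butyrate. *Cidea*, a lipid droplet protein, fell from 9.22 to 12.0 CPM to 7.31 to 7.84 CPM in adipocytes and was listed at 0 in all macrophage controls and at 0.039 to 0.085 CPM with butyrate, too low to give a fold. The glucose transporter *Slc2a4* rose in both cell types, from 88.2 to 90.7 CPM to 108 to 113 CPM in adipocytes and from 0.050 to 0.086 CPM to 5.65 to 6.39 CPM in macrophages, where *Fabp4* and *Lipe* had means of 73.8 and 12.8 CPM with butyrate and the other 5 adipocyte-defining markers were under 1 CPM. *Adrb3*, the β3-adrenergic receptor, fell from 292 to 356 CPM to 35.5 to 44.5 CPM in adipocytes and was under 0.28 CPM in all macrophage libraries. *Mgll* and *Agpat2*, the higher members, fell in both cell types and fell further in macrophages.

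Of 31 fatty acid oxidation genes, 13 responded more upward in macrophages and 4 more upward in adipocytes, and 18 of the 31 rose and 5 fell in macrophages, beside 31.9% and 33.2% of all genes. In adipocytes 10 rose and 9 fell, close to the 30.7% and 30.3% of all genes, and the 9 became 5 without adipocyte control replicate 1 or 2 or adipocyte butyrate replicate 1. *Etfdh*, which passes electrons from fatty acid oxidation to the respiratory chain, rose in macrophages from 43.1 to 43.5 CPM to 84.7 to 91.7 CPM and had 158 to 176 CPM in both adipocyte groups. *Hadhb*, a subunit of the mitochondrial trifunctional protein, rose from 59.2 to 62.7 CPM to 118 to 122 CPM in macrophages, with 455 to 529 CPM in adipocyte controls and 510 to 526 CPM with butyrate. *Acadl*, a dehydrogenase of long-chain acyl-CoA, was opposite (-0.26 ± 0.05 in adipocytes and 0.36 ± 0.05 in macrophages), as was *Cpt1b*, with a mean of 0.20 CPM in macrophage controls. *Cpt1a*, the liver form of the carnitine palmitoyltransferase, rose in both and more in adipocytes (0.91 ± 0.10 against 0.32 ± 0.10). In the list of fatty acid synthesis (18 genes, 4 higher and 4 lower, the former 2 without adipocyte control replicate 2, adipocyte butyrate replicate 3, macrophage control replicate 3 or any 1 of the macrophage butyrate replicates, and with library totals alone) *Fasn*, the fatty acid synthase, fell in macrophages from 159 to 164 CPM to 67.6 to 75.9 CPM and had 1549 to 1931 and 1951 to 2111 CPM in adipocytes. *Acacb*, the acetyl-CoA carboxylase of mitochondria, fell from 225 to 252 CPM to 141 to 149 CPM in adipocytes and rose from 0.25 to 0.43 CPM to 3.55 to 4.09 CPM in macrophages. *Mlxipl*, which encodes the glucose-responsive factor ChREBP, fell from 43.9 to 56.2 CPM to 30.8 to 38.7 CPM in adipocytes and went from at most 0.085 CPM to 0.78 to 1.48 CPM in macrophages.

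Interferon response genes that were called fell in adipocytes with 1 exception and were mixed in macrophages. Of 36 members, 20 fell and 1 rose in adipocytes, 9 rose and 7 fell in macrophages, and the difference was called for 9 members toward macrophages and 1 toward adipocytes, beside 36.6% of all genes called, counts that depended on single libraries and on the fit. The summed level of the list fell from 3986, 2500.0 and 2710.0 CPM to 2804, 1757 and 1900.0 CPM in adipocytes and was 1091 to 1158 CPM in macrophage controls and 1101 to 1153 CPM with butyrate. Adipocyte replicate 1 was the highest library of both treatments, and its butyrate library lay above the lower pair of controls. Without adipocyte control replicate 1, 12 members fell and 2 rose in adipocytes and the difference was called for 7 toward macrophages and 2 toward adipocytes. Without adipocyte butyrate replicate 1, 18 members were called toward macrophages, and 15 without adipocyte control replicate 2. *Ddx58* was the opposite member, and *Dhx58*, a relative of RIG-I, had 30.5 to 45.7 CPM in adipocyte controls and 23.9 to 30.9 CPM with butyrate and rose from 7.76 to 9.73 CPM to 20.4 to 23.5 CPM in macrophages. *Ifngr2*, a chain of the interferon-γ receptor, fell from 158 to 166 CPM to 94.2 to 101 CPM in macrophages and had 75.8 to 80.6 and 82.5 to 85.5 CPM in adipocytes. Among 21 antigen presentation genes 1 was higher and 4 were lower in adipocytes (4 and 7 with the 12 libraries alone, 2 and 7 with no filter on low counts), *Tap1* and *Tap2* being opposite, while *Cd40*, a receptor of antigen-presenting cells, rose in macrophages by 2.14 ± 0.21.

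**Figure D5:**
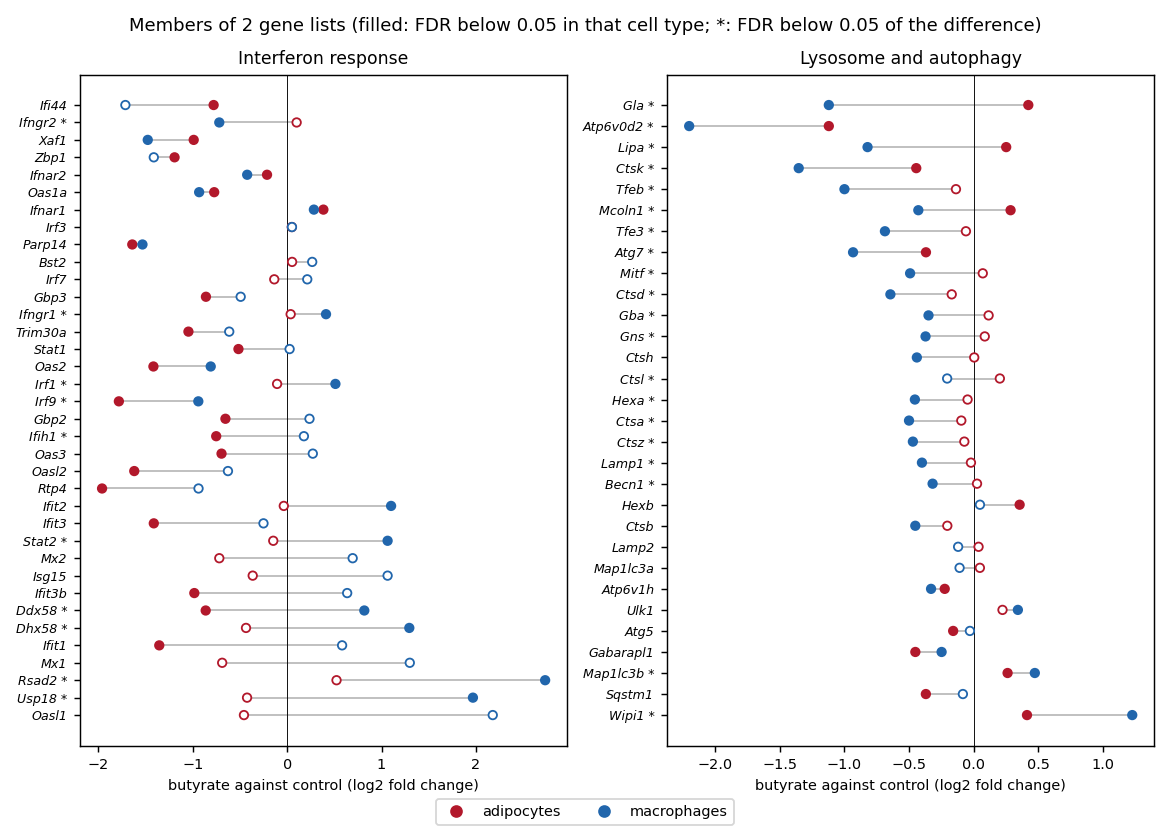
Log2 fold change of butyrate over control (x axis) in adipocytes (red) and macrophages (blue) for each member of the interferon response list (left) and of the lysosome and autophagy list (right), ordered by the difference. Filled points passed an FDR below 0.05 in that cell type and asterisks mark members whose difference did. Interferon genes lie mostly left of 0 in adipocytes (20 called lower), and lysosomal genes mostly left of 0 in macrophages (21 called lower).

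Of 38 genes of macrophage identity, 24 fell and 0 rose in macrophages, beside 33.2% and 31.9% of all genes, 11 fell and 2 rose in adipocytes, beside 30.3% and 30.7%, and 10 had a higher response in adipocytes and 0 a lower one (26.32% called, beside 36.6% of all genes). This count is sensitive to the libraries in the model, being 19 and 2 with the 12 libraries alone, 6 and 1 without adipocyte butyrate replicate 3, and 7 and 3 with library totals alone. *Mertk*, a receptor for the uptake of apoptotic cells, was opposite, rising from 9.57 to 11.2 CPM to 17.5 to 19.1 CPM in adipocytes and falling from 106 to 109 CPM to 62.2 to 70.7 CPM in macrophages. Its adipocyte level exceeds the share of the summed macrophage markers, of which none had a called difference (8 of 12 with the 12 libraries alone). *Irf5*, a transcription factor of inflammatory macrophages, fell in both, by 0.49 in adipocytes and by 1.44 in macrophages. Among 42 genes of innate sensing, 16 were higher and 6 lower in adipocytes (38.1% and 14.3%, beside 19.5% and 17.2% of all genes). *Rel*, a subunit of NF-κB, rose from 8.88 to 9.75 CPM to 11.2 to 13.6 CPM in adipocytes and fell from 77.0 to 82.4 CPM to 41.1 to 44.6 CPM in macrophages. *Tnfaip3*, an inhibitor of NF-κB signalling, rose in adipocytes from 5.40 to 7.93 CPM to 12.8 to 13.2 CPM and had 26.7 to 29.2 and 23.6 to 25.1 CPM in macrophages. *Tlr2* and *Ticam2*, a receptor and an adaptor of innate sensing, were opposite too, although *Ticam2* had a mean of 0.45 CPM in adipocyte controls against 41.7 CPM in macrophage controls, under the share of the summed macrophage markers. *Ly96*, the partner of Tlr4 in binding lipopolysaccharide, fell more in adipocytes (-1.86 ± 0.18) than in macrophages (-0.53 ± 0.14). The 34 cytokine, chemokine and receptor genes were split, with 6 higher and 8 lower (41.2% called, near the 36.6% of all genes). Among receptors, *Il1r1* was called in macrophages and not in adipocytes (3.07 to 3.18 CPM to 13.7 to 15.3 CPM, with 136 to 148 and 158 to 159 CPM in adipocytes), *Il6ra* fell in macrophages with no call in adipocytes (94.6 to 96.7 CPM to 39.7 to 42.8 CPM, with 28.1 to 33.0 and 31.7 to 33.4 CPM in adipocytes) and *Tnfrsf1b* was opposite (0.63 ± 0.10 in adipocytes and -0.25 ± 0.09 in macrophages). The cytokine gene *Il15* was opposite in the same direction as *Tnfrsf1b*.

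Of 37 cell cycle genes, 25 fell and 3 rose in macrophages, beside 33.2% and 31.9% of all genes. In adipocytes 11 fell and 6 rose, the former close to the 30.3% of all genes, and 14 responded more upward in adipocytes against 5. Without adipocyte control replicate 1, 18 fell and 4 rose in adipocytes and the differences numbered 11 against 6, and without adipocyte control replicate 1 or 3 the members that rose in macrophages numbered 5. The 5 became 3 without adipocyte control replicate 2 or 3 or macrophage control replicate 1 or 2. Summed, the list went from 3974 to 4059 CPM to 2436 to 2554 CPM in macrophages and from 1346 to 1476 CPM to 1233 to 1288 CPM in adipocytes. *E2f2*, a transcription factor of S phase, rose from 2.30 to 3.02 CPM to 6.97 to 7.25 CPM in adipocytes and fell from 40.5 to 44.6 CPM to 33.3 to 36.0 CPM in macrophages, and the mitotic checkpoint kinase *Bub1b* was opposite in the same way. *Rrm1*, a subunit of ribonucleotide reductase, fell in both and further in macrophages (-0.42 ± 0.08 against -1.24 ± 0.08). *Ccnd3* (cyclin D3) rose in both, from 65.7 to 68.6 CPM to 107 to 112 CPM in adipocytes and from 32.1 to 34.3 CPM to 86.2 to 94.2 CPM in macrophages, and *Mcm5*, a part of the replicative helicase, fell more in adipocytes. The 27 genes that restrain the cell cycle gave 8 and 5 calls (48.15%, beside 36.6% of all genes). *Sesn1*, a target of p53, rose in adipocytes only (1.03 ± 0.10), *Cdkn2c*, an inhibitor of CDK4 and CDK6, fell in macrophages only (-1.27 ± 0.12), *Rbl1*, a relative of the retinoblastoma protein, was opposite, and the p53 targets *Trp53inp1* and *Bbc3* had lower responses in adipocytes.

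Early response transcription factors and their regulators had 14 members higher and 3 lower in adipocytes of 31 tested, which became 8 and 6 with library totals alone, 9 and 4 without adipocyte control replicate 3 or adipocyte butyrate replicate 3, and 9 and 5 without macrophage butyrate replicate 1. *Atf3*, a factor induced by stress, rose from 9.35 to 11.0 CPM to 19.0 to 20.3 CPM in adipocytes and fell from 157 to 159 CPM to 91.1 to 93.9 CPM in macrophages (difference 1.73 ± 0.14). *Fos*, a subunit of AP-1, rose from 5.08 to 6.02 CPM to 9.98 to 11.0 CPM in adipocytes and fell from 47.5 to 51.3 CPM to 30.4 to 34.2 CPM in macrophages. *Dusp3*, a phosphatase of MAP kinases, fell in both, from 98.7 to 104 CPM to 60.1 to 62.3 CPM in adipocytes and from 304 to 322 CPM to 64.6 to 67.4 CPM in macrophages. *Klf9*, a target of glucocorticoids, had the reverse opposite pattern, with -0.32 ± 0.08 in adipocytes and 0.35 ± 0.09 in macrophages, and the low-level phosphatase *Dusp2* rose in macrophages.

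Among 26 genes of HDACs and their corepressor complexes, 9 were higher and 4 lower in adipocytes (50% called, beside 36.6% of all genes). The split turned to 5 and 8 with library totals alone and to 4 and 6 without macrophage butyrate replicate 1 (5 and 4 without macrophage butyrate replicate 3). Of the helicases of the NuRD complex, *Chd3* fell in macrophages only, from 131 to 139 CPM to 57.5 to 64.0 CPM, with 55.0 to 64.6 and 55.6 to 64.9 CPM in adipocytes. *Chd4* was opposite, with 323 to 343 CPM falling to 301 to 305 CPM in adipocytes and 397 to 407 CPM rising to 498 to 534 CPM in macrophages. *Mta1*, another subunit of NuRD, was opposite in the same direction (difference -0.49 ± 0.07). *Tbl1xr1*, a subunit of the NCoR and SMRT complexes, was opposite in the other direction, at 57.6 to 67.6 and 72.2 to 76.6 CPM in adipocytes and 110 to 116 and 59.1 to 60.8 CPM in macrophages.

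Of 32 genes of insulin and growth factor signalling, 12 were higher and 3 lower in adipocytes (9 and 5 with library totals alone). This was 46.9%, beside 36.6% of all genes. *Igf2r*, the receptor that sorts IGF2 and lysosomal enzymes, rose in adipocytes from 99.4 to 106 CPM to 185 to 191 CPM and had 318 and 308 to 352 CPM in macrophages, although it overlaps the antisense gene *Airn*. *Ptpn1*, a phosphatase of the insulin receptor, rose in adipocytes from 72.5 to 88.9 CPM to 141 to 147 CPM and had 194 to 202 and 207 to 213 CPM in macrophages. *Phlda3*, which competes with Akt for the membrane, fell more in adipocytes (-1.65 ± 0.07) than in macrophages (-0.48 ± 0.08). Glycolysis genes (30 tested) gave 6 calls in each direction (40%, near the 36.6% of all genes). These became 9 higher and 3 lower without adipocyte control replicate 1. In that list *Hif1a* and *Pfkfb4* were higher and *Pfkfb3* and *Eno3* lower in adipocytes, and *Pdk4*, the kinase that shuts pyruvate dehydrogenase, was opposite. Adipocyte controls had 688, 323 and 341 CPM of *Pdk4*, of which replicate 1 was near the butyrate libraries at 699 to 853 CPM, and macrophages fell from 17.6 to 20.2 CPM to 10.9 to 13.2 CPM. Of 32 extracellular matrix genes, 3 were called (9.4%, below the 36.6% of all genes), *Timp2* and *Postn* higher and *Timp3* lower in adipocytes. With the 12 libraries alone or with no filter on low counts, 5 were higher and 2 lower. Among 12 tested transporters and receptors of short-chain acids and related genes, 4 were higher and 4 lower (66.7% called), the latter 2 without adipocyte control replicate 1. The monocarboxylate transporter *Slc16a7* (Mct2) fell in macrophages from 34.5 to 35.1 CPM to 16.1 to 18.2 CPM and had 1.52 to 2.91 CPM across adipocyte libraries, and *Slc16a6* (Mct7) was also lowered in macrophages (-0.49 ± 0.12). The lactate receptor *Hcar1* fell in adipocytes from 16.5 to 22.3 CPM to 8.74 to 10.1 CPM and was under 0.40 CPM in macrophages. *Acss3*, which activates propionate, was listed at 0 in the macrophage controls, at 0.51 to 0.70 CPM with butyrate and at 43.9 to 59.3 CPM across adipocyte libraries.

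Markers of other cells were also examined for a different response. Of 12 tested fibroblast and preadipocyte markers, *Thy1* and *Pdgfra* had lower responses in adipocytes (1 of them without macrophage control replicate 3). *Thy1* rose in both cell types, in macrophages from 1.07 to 6.09 CPM at the means, and *Pdgfra* fell in adipocytes from 197 to 109 CPM. Of 9 endothelial markers, *Vwf* was higher and *Kdr* and *Egfl7* were lower in adipocytes, the first at 90.6 CPM in macrophage controls, beside 36.6% of all genes called. Without macrophage control replicate 2, 4 endothelial markers were higher, without macrophage butyrate replicate 3, 2, and without adipocyte control or butyrate replicate 3, 0. Within the cell types 5 of the 9 fell in adipocytes (3 without control replicate 1 or butyrate replicate 2) and 4 in macrophages (1 without control replicate 1). Their summed level went from 211 to 238 CPM to 145 to 166 CPM in adipocytes and from 131 to 159 CPM to 89.2 to 99.1 CPM in macrophages, with no overlap in either, and its part in the other results was not tested. Of 4 tested markers of other bone marrow cells, *Kit* had a higher response in adipocytes, with 2.56 CPM in controls and 4.02 CPM with butyrate, a call that was lost without adipocyte control replicate 2, adipocyte butyrate replicate 1 or macrophage control replicate 1. Of the list genes named, *Map1lc3b*, *Npc1*, *Adrb3*, *Agpat2*, *Etfdh*, *Dhx58*, *Irf5*, *Ticam2*, *Ccnd3*, *Hif1a*, *Pfkfb3*, *Timp2*, *Timp3*, *Slc16a6* and *Egfl7* overlap another tested gene on the opposite strand, and since the counting is not stated to use strand their values may hold reads of that gene.

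For βOHB at the same dose and time, no gene had a different response between adipocytes and macrophages at an FDR below 0.05 by edgeR (0.0% of those tested, 456 genes at an unadjusted p below 0.05), 0 by limma-voom (510) and 3 by DESeq2 (429). With no filter on low counts, edgeR called 31 genes. The βOHB comparison shares the control libraries with that of butyrate. Over the 26 leading genes the βOHB difference lay between -0.54 and 0.52 on the log2 scale, with no adjusted p under 1.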

How the data were processed

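Gene expression was measured by paired-end RNA-seq (BGISEQ-500) in 36 libraries, 12 of which (3 per group) carry the comparison of butyrate responses. The deposited values are estimated counts per gene, which the authors made with Salmon 1.2.1 on GRCm38.p6 with GENCODE transcripts and tximport, and which were rounded to whole numbers here. Strandedness of the counting is not given in the sources used here. The 12 libraries hold 18845571 to 23180421 counts, and the number of libraries, 3 per group, limits the precision.

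Genes with more than 1 CPM in at least 6 of the 36 libraries (15340) were fitted in edgeR 4.0.16 (R 4.3.3) by quasi-likelihood with TMM scaling and 1 mean for each of 12 groups, so that all libraries shared the estimate of spread. Each difference of responses was a contrast of 4 group means, with an FDR below 0.05 by Benjamini-Hochberg and SE and 95% intervals from the F statistic. An exact permutation test of 3 against 3 libraries cannot go below p = 0.1 and was not used. The fit was tested on simulated data.

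The groups compared, the gene lists and the rule for named genes were chosen with earlier results of these data known. Named genes had separated libraries in the called cell types and at least 5 CPM in control or butyrate libraries of each, with predicted genes left out. They were the 5 genes with the largest smaller fold change in each opposite group and the 4 with the largest difference in each group that responded in 1 cell type. From each list the 2 members with the lowest p in each direction and every opposite member were named, except a few genes that are not reported here. Symbols (54094 of 54347 gene IDs matched) and gene coordinates are from GENCODE M21 (GRCm38), and promoter windows are from RefSeq (GRCm38.p6). Alternatives were limma-voom (limma 3.58.1), DESeq2 1.42.0, other scalings, filters and limits, the 12 libraries alone, a replicate block and leaving out each library.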

Additional observations from a re-analysis of the deposited data

Results flagged for a closer look

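The results below were marked because the butyrate response differed between adipocytes and macrophages by a test of the difference itself. They comprise the 2986 genes with the higher response in adipocytes, the 2632 with the lower one, the 405 and 291 genes that moved in opposite directions, 92 list members that met the rule for named genes, not all of which are reported here, and the 26 leading genes. With 3 libraries a group, single values were not tested for outlying samples.

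Among genes that rose in adipocytes and fell in macrophages the difference of the log2 responses was 2.73 for *Gas2l3*, 2.73 for *Arhgap19*, 2.35 for *Adap1*, 2.53 for *Dhrs9* and 1.92 for *Fat4* (1.915). For the reverse pattern it was -3.40 for *Mcam*, -1.92 for *Ormdl3*, -1.76 for *Tap1*, -2.31 for *Nod1* and -1.68 for *Ddx58*. The genes raised in adipocytes alone had 2.22 (*Rab3il1*), 1.74 (*Rps6ka1*), 1.73 (*Etv1*) and 1.67 (*Pgap1*), and those lowered there alone -2.29 (*Aldh1a3*), -2.04 (*Arhgef40*), -1.62 (*Cxcl14*) and -1.52 (*Il1rn*). The genes raised in macrophages alone had -4.13 (*Plppr3*), -3.63 (*Fam13a*), -3.37 (*Nrbp2*) and -2.56 (*S1pr3*), and those lowered there alone 2.67 (*Hpgd*), 2.19 (*Tmem254b*), 2.03 (*Cerk*) and 1.95 (*Arhgap24*).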

How the results depend on the processing

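The differences of the 26 leading genes kept their direction and stayed past the threshold in each alternative run, but the balance of the counts turned in some. Library totals alone turned 2986 genes higher and 2632 lower in adipocytes to 2014 and 3875. The fit without macrophage butyrate replicate 1 gave 2589 and 2667, and that with the 12 libraries alone 3243 and 3306. With no filter on low counts, lower responses in adipocytes also outnumbered higher ones. The 12 libraries alone gave more different responses and more opposite genes of each direction than reported, and 386 and 283 of the reported opposite genes kept their call. Totals alone also turned the HDAC list from 9 higher and 4 lower to 5 and 8 (4 and 6 without macrophage butyrate replicate 1), and gave 251 and 457 opposite genes (rising in adipocytes and in macrophages) and 50 genes lowered in macrophages alone. With at least 0.6 on the log2 scale required of the responding cell type, 193 genes were raised and 141 lowered in adipocytes alone, and 250 and 285 in macrophages alone. Requiring at least 1 in both left 10 and 22 opposite genes, of which most of the 22 and several of the 10 had means under 1 CPM in a cell type. Leaving out each library in turn gave 5041 to 5256 genes with different responses, 329 to 373 and 244 to 286 opposite genes, and 63 to 76, 40 to 54, 90 to 117 and 78 to 102 genes in the groups raised or lowered in adipocytes alone and in macrophages alone. The βOHB difference had 3 genes by DESeq2, 31 with no filter on low counts and 0 to 1 when a library was left out. Without genes under the marker share of the other cell type (chosen after seeing the data), 392 and 263 opposite genes were called. The adipocyte marker share in macrophages rests on *Fabp4* and *Lipe*, which macrophages also express. *Cidea* lost its call under DESeq2 and with no filter, *Map1lc3b* with no filter, and *Kit*, *Postn* and *Vwf* with library totals alone, where *Rps6ka1* also left its group. Interferon genes with a lower response in adipocytes numbered 9 as reported, 12 under DESeq2, 13 with the 12 libraries alone, 15 with library totals alone and 23 with no filter. The causes were not tested.

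Across genes, deviations of same-numbered control and butyrate libraries from their group means correlated weakly. In adipocytes they correlated by 0.016 to 0.054, beside -0.053 to 0.011 for different numbers. In macrophages the values were -0.020 to 0.006, beside -0.062 to 0.077. The summed interferon list had the same order of adipocyte replicates in both treatments. Whether the numbers pair the libraries is not stated and was not tested further. With the replicate block, 5565 genes had different responses, 411 and 291 were opposite and 19 interferon genes had a lower response in adipocytes, against 9 without it.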
